A study of Ovis aries with 6 samples.

Results

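The genes described are the suppressors of cytokine signalling and the growth hormone receptor in sheep muscle. They were chosen by symbol as SOCS1 to SOCS7, CISH and GHR, which makes 9 of the 23144 genes in the count table, and a 10th symbol on the list was not analysed here. The libraries came from the longissimus dorsi muscle, the long muscle of the back, of sheep of 2 breeds, with 3 animals per breed and 1 library per animal. Qianhua Mutton Merino (QHMM) is a breed for mutton and wool made by crossing South African Mutton Merino rams with Chinese Northeast Fine-wool ewes. Small Tail Han (STH) is a traditional local breed. All animals were females aged 1 year with no treatment named, kept in the same environment with free access to food and water. The methods state that live weight was taken after a fast, before slaughter. Poly(A)-containing RNA was read on an Ion Proton instrument. The comparison is STH vs. QHMM throughout, so a positive log2 fold change means a higher level in STH.

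Growth hormone binds GHR at the cell surface, which activates the kinase JAK2 and then the transcription factors STAT5A and STAT5B. CISH and SOCS2 are classical STAT5 target genes, and their proteins act back on the receptor, CISH by binding its phosphorylated tail and SOCS2 by recruiting a ubiquitin ligase that marks it for degradation. SOCS1 and SOCS3 inhibit JAK kinases after interferon and interleukin-6 type signals, while SOCS4 to SOCS7 act mainly on growth factor and insulin receptor signalling. Sheep muscle is a major target of growth hormone, and mice without SOCS2 grow larger than normal.

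The libraries held 10982191 to 14334544 gene reads each, and 12506 genes passed edgeR's filter for low counts and were tested. A gene was called when its false discovery rate (FDR, the Benjamini-Hochberg adjusted p over all tested genes) was under 0.05 and its change exceeded 1.5-fold in either direction, the thresholds the study used. By this rule 3.45% of the tested genes were called, 1.62% as higher and 1.83% as lower in STH, and the median log2 fold change of all tested genes was 0.02. Skeletal muscle markers made up 115137 to 236449 CPM (counts scaled to a common library size) in the 6 libraries, although TNNT3, fast skeletal troponin T, was listed at 0 in every one of them. Because whole muscle was sequenced, fewer cells of a type and less RNA per cell cannot be told apart.

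CISH and SOCS2, the inhibitors that STAT5 induces, were up-regulated in STH, and GHR, the receptor that they restrain, did not pass the test. SOCS2 was 2.93-fold and CISH 2.28-fold higher in STH. None of SOCS3, SOCS4, SOCS5, SOCS6 and SOCS7 was called by edgeR, and SOCS1 was too low to be tested. Of the 8 genes tested, 2 were therefore called and both were higher in STH, where 1.62% of all tested genes were called in that direction. The median log2 fold change of the 8 was -0.04. The breeds did not overlap for 3 of the 8, SOCS2, CISH and SOCS7, where this held for 24.7% of all tested genes. SOCS2 and CISH were the 2 that lay higher in STH, against 13.0% of all genes, and SOCS7 the 1 that lay lower, against 11.7%. At an unadjusted p below 0.05 stood 2 of the 8, the same SOCS2 and CISH, against 19.2% of all genes.

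For SOCS2, QHMM replicates 1, 2 and 3 gave 44.1, 82.6 and 73.7 normalized counts, and STH replicates 1, 2 and 3 gave 186, 217 and 183. The lowest STH animal lay well above the highest QHMM animal. A normalized count is the read count after TMM scaling in edgeR, set to the median library total. The means were 66.8 ± 20.2 in QHMM (SD, n = 3) and 195 ± 18.5 in STH (n = 3), which edgeR estimated as a log2 fold change of 1.55 (SE 0.28, FDR = 0.0193). The call was lost when QHMM replicate 1, QHMM replicate 3 or STH replicate 2 was left out, with an FDR of 0.0664, 0.0578 and 0.0519 in turn. The log2 fold change without 1 library stayed between 1.30 and 1.73.

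CISH had 385, 286 and 334 normalized counts in QHMM and 668, 983 and 643 in STH. STH replicate 2 was the highest, and again no STH animal overlapped a QHMM animal. Its mean rose from 335 ± 49.9 (SD, n = 3) to 765 ± 189 (n = 3), an estimated log2 fold change of 1.19 (SE 0.24, FDR = 0.0266, edgeR). Without QHMM replicate 1, 2 or 3 or STH replicate 2 the FDR lay between 0.0723 and 0.0961 and CISH was not called, at log2 fold changes of 0.95 to 1.28. In the RefSeq annotation of a later sheep assembly (ARS-UI_Ramb_v3.0), the gene HEMK1 overlaps CISH, and the count table puts the 2 genes on opposite strands. How strand entered the counting is not given in the sources used here. HEMK1 had 74.7 to 120.0 normalized counts in QHMM against 111 to 175 for STH. HEMK1 was not called, at 0.48 on the log2 scale (SE 0.28, FDR = 0.396, edgeR). Non-coding genes overlap SOCS2 and SOCS3 in the same annotation, and SOCS4 overlaps WDHD1. STAT5A overlaps STAT5B there.

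**Figure D1:**
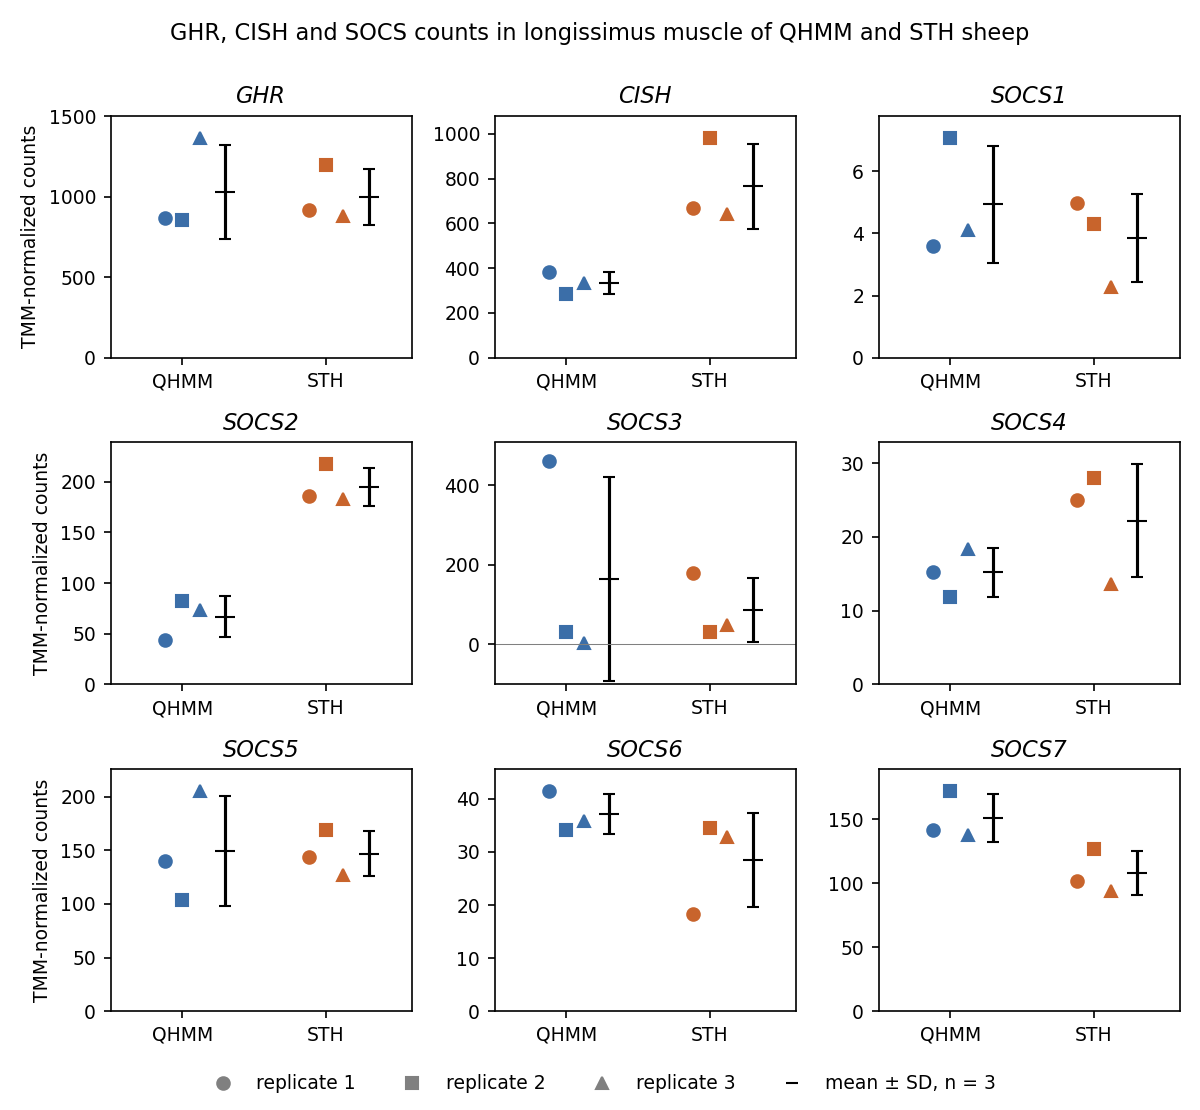
TMM-normalized counts (y axis, linear and separate for each gene) of the 9 genes in the 3 QHMM (blue) and 3 STH (orange) libraries, with the mean ± SD of each breed in black. For SOCS2 and CISH every STH point lies above every QHMM point, the GHR points of the breeds overlap, and SOCS3 runs from 2.05 to 462 within QHMM.

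GHR showed no difference that passed the test. By mean RPKM (reads scaled to gene length and library total) it was the highest of the 9 genes in each breed. In QHMM replicate 1, however, SOCS3 at 43.3 exceeded GHR at 30.1. GHR had 866, 855 and 1366 normalized counts in QHMM and 919, 1197 and 880 in STH. The breeds overlapped, with QHMM replicate 3 the highest. The means were 1029 ± 292 in QHMM (SD, n = 3) and 999 ± 173 in STH (n = 3), which left a log2 fold change of -0.04 (SE 0.25, FDR = 0.949, edgeR). An SE of this size does not show that the breeds had equal levels.

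Ratios within a library need no normalization between libraries, so they show how the inhibitors stood against their receptor. With GHR at a log2 fold change of -0.04, they largely restate the differences of SOCS2 and CISH on the same counts. The log2 ratio of SOCS2 to GHR reads was -4.28, -3.36 and -4.20 in QHMM and -2.30, -2.46 and -2.26 in STH. The 3 STH animals lay close together (SD 0.11, n = 3) and above all 3 QHMM animals. The difference between the breeds was 1.61 on the log2 scale, a 3.05-fold higher ratio in STH, with a two-sided exact permutation p of 0.10 that is the smallest 3 against 3 animals allow. The log2 ratio of CISH to GHR was -1.17, -1.58 and -2.03 in QHMM and -0.46, -0.28 and -0.45 in STH, a difference of 1.19 with the same exact p of 0.10. Because the breeds did not overlap in either ratio, leaving out 1 library could not change the sign of these differences.

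SOCS2 and CISH could not be told apart in how far they rose. The log2 ratio of SOCS2 to CISH was -2.36 ± 0.68 in QHMM (SD, n = 3) and -1.94 ± 0.21 in STH (n = 3). The difference of 0.41 had an exact permutation p of 0.70, and the breeds overlapped. QHMM replicate 1, at -3.11, had the least SOCS2 for its CISH of all 6 libraries.

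**Figure D2:**
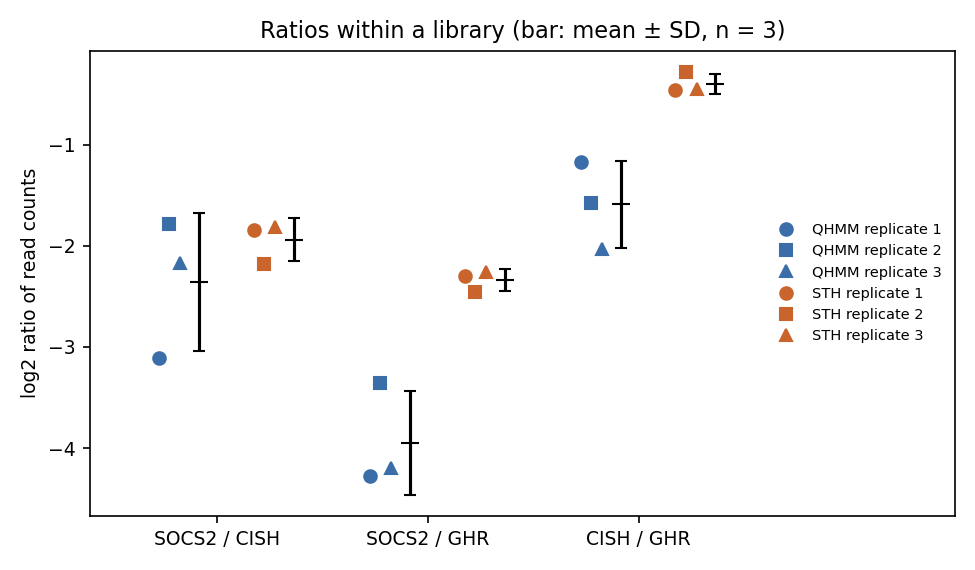
Log2 ratio of raw read counts of 2 genes within each library (y axis) for the 3 ratios, with 1 symbol per library and the mean ± SD of each breed in black. The STH points of SOCS2 / GHR and CISH / GHR lie above all QHMM points, and those of SOCS2 / CISH fall among the QHMM points.

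SOCS3 varied between animals far more than between breeds. QHMM replicates 1, 2 and 3 gave 462, 31.9 and 2.05 normalized counts, from 513, 27 and 2 reads, and the STH replicates gave 179, 30.2 and 48.6. Replicate 1 was thus the highest in each breed, and the highest QHMM animal had 226 times the level of the lowest. The pooled SD within a breed was 2.59 on the log2 CPM scale, and only 4 of the 12506 tested genes had a larger one. The log2 fold change of -0.94 (SE 1.14, FDR = 0.708, edgeR) turned to 2.36 without QHMM replicate 1, and to 0.38 with limma-trend on log2(RPKM + 1). No direction can be given for SOCS3 from these animals.

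Of the 11 tested STAT target genes listed beside SOCS3, 3 were highest in QHMM replicate 1 (CCND1, IGF1 and JUNB) and 4 were lowest in QHMM replicate 3 (JUNB, MCL1, MYC and PIM1), so that JUNB alone had both. PIM1, a survival kinase, was highest in QHMM replicate 2 at 309 normalized counts, BCL6, a transcriptional repressor, in STH replicate 3 at 1519, and MCL1, an inhibitor of cell death, in STH replicate 2 at 2844. These STAT targets, and IL6, LIF, OSM and CTF1 among the cytokines, were chosen after their values were seen. JUNB, an immediate-early transcription factor and STAT3 target, had 2920.2, 789 and 35.8 normalized counts in QHMM and 1375, 472 and 873 in STH. QHMM replicate 1 was therefore the highest and QHMM replicate 3 the lowest for JUNB as for SOCS3. IL6, the ligand that induces SOCS3, had 62.1 normalized counts in QHMM replicate 1 and at most 4.99 in each of the other libraries. LIF, a cytokine of the same family, was highest in that library too, with 56.7 against 4.52 to 30.7 elsewhere. OSM, also a cytokine of the family, had 23.4 in QHMM replicate 1 and 27.1 in STH replicate 3, against at most 2.5 in the others. CTF1, a further cytokine of the family, went the other way, with its lowest level, 1.80, in QHMM replicate 1 and 5.12 to 9.44 elsewhere.

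**Figure D3:**
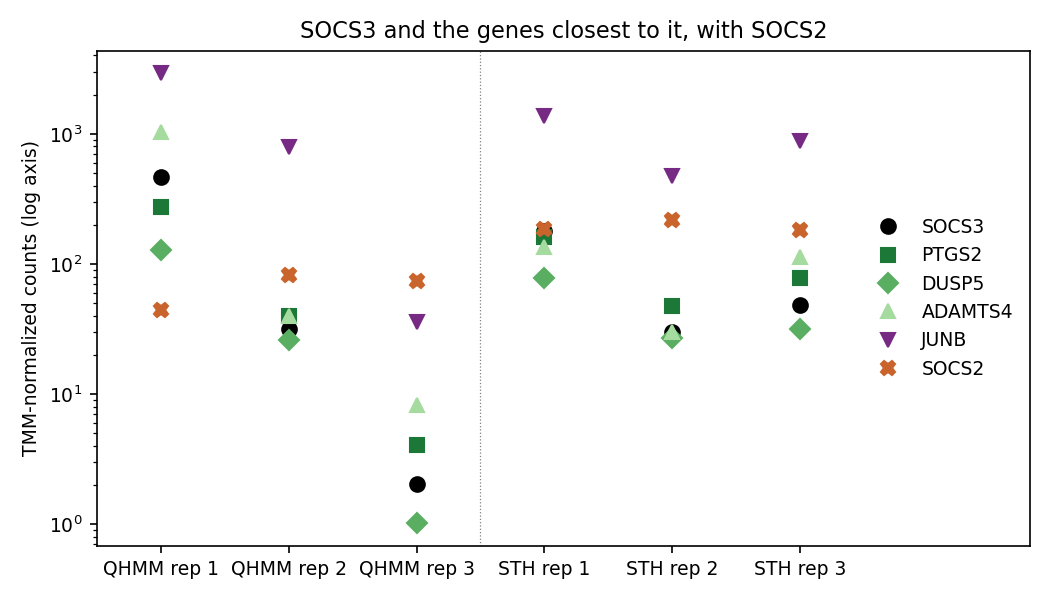
TMM-normalized counts (y axis, log scale) of SOCS3, of JUNB, of the 3 genes whose profiles lay closest to SOCS3 (PTGS2, DUSP5 and ADAMTS4, chosen after its values were seen) and of SOCS2 in the 6 libraries, with a dotted line between the breeds. SOCS3, JUNB, PTGS2, DUSP5 and ADAMTS4 are highest in QHMM replicate 1 and lowest in QHMM replicate 3, and SOCS2 is higher in the 3 STH libraries.

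SOCS4 to SOCS7 showed no called difference, and their log2 fold changes lay between -0.48 and 0.54. SOCS7, which binds insulin receptor substrates, had 142, 172 and 138 normalized counts in QHMM and 102, 127 and 93.8 in STH. All STH animals were below all QHMM animals, but SOCS7 was not called, at -0.48 on the log2 scale (SE 0.24, FDR = 0.309, edgeR). SOCS7 was also the steadiest of the 8 tested genes, with an SD within a breed of 0.20 on the log2 CPM scale that was larger than that of 14.9% of the tested genes.

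SOCS5, an inhibitor of interleukin-4 and epidermal growth factor signalling, had 104 to 205 normalized counts in QHMM against 127 to 169 for STH, at a log2 fold change of -0.03 (SE 0.29, FDR = 0.970, edgeR). SOCS6 had 34.2 to 41.4 normalized counts in QHMM and 18.3 to 34.5 in STH, where STH replicate 1 was the lowest, with -0.39 (SE 0.37, FDR = 0.605). SOCS4, close to SOCS5 in sequence, had 11.8 to 18.4 in QHMM and 13.6 to 28.0 in STH, with 0.54 (SE 0.44, FDR = 0.548). In each of these 3 genes the breeds overlapped. SOCS1, the inhibitor of interferon signalling, had 2 to 6 reads per library, too few for a difference to be detected at this depth.

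Levels of different genes were compared per length, on the deposited RPKM values (reads per kilobase of gene, scaled to the library's total). GHR had a mean RPKM of 34.5 ± 12.3 in QHMM (SD, n = 3) and 36.3 ± 9.88 in STH (n = 3). CISH came to 13.5 ± 3.11 in QHMM and 33.7 ± 11.1 in STH. In STH the CISH and GHR values overlapped, at 22.8 to 45.1 for CISH and 25.8 to 45.4 for GHR, whereas in QHMM they did not, at 10.1 to 16.2 and 25.0 to 48.4. Within each STH library GHR still lay above CISH, at 37.8 against 33.3, 45.4 against 45.1 and 25.8 against 22.8. The mean RPKM over the 6 libraries placed GHR above 87.3% and CISH above 82.3% of the tested genes.

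Among the inhibitors, the order of mean RPKM in QHMM after SOCS3 was CISH, SOCS7, SOCS2, SOCS5, SOCS6, SOCS1 and SOCS4. In STH it was CISH, then SOCS3 and SOCS2, then SOCS7, SOCS5, SOCS6, SOCS4 and SOCS1. SOCS2 stood at 2.67 ± 0.700 in QHMM, where its values overlapped those of SOCS5 at 2.62 ± 1.09, and at 8.63 ± 1.84 in STH, where they overlapped those of SOCS7 at 5.44 ± 1.47. SOCS2 was below SOCS7 in every QHMM library, at 1.87 to 3.18 against 6.78 to 6.99, and above it in every STH library. SOCS1 and SOCS4, each at an RPKM of at most 1.02 in every library, had overlapping ranges in both breeds. SOCS4 lay above SOCS1 within each STH library but not within each QHMM library, and both rest on few reads. SOCS3 ran from 0.196 to 43.3 in QHMM, a range that overlapped every other gene, and from 3.09 to 19.9 in STH. These levels rest on gene lengths that the RPKM values imply, from 554 bases for SOCS1 to 4296 for SOCS5, so a gene model that lacks part of its transcript would shift them.

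CISH held 21.8%, 37.3% and 45% of the summed RPKM of the 8 inhibitor genes in QHMM and 44.6%, 62.4% and 55.2% in STH. SOCS3 alone held 58.2% in QHMM replicate 1 and 0.616% in QHMM replicate 3. The sum was 74.4, 27.2 and 31.7 in QHMM and 74.6, 72.3 and 41.3 in STH, so the breeds overlapped. Without SOCS3 the sum was 31.1, 24.6 and 31.5 in QHMM and 54.7, 69.2 and 37.5 in STH. SOCS3 was left out after its values were seen, and CISH made up 60.8% to 65.2% of this sum in STH, so its separation largely restates that of CISH. With CISH left out as well, the sum was 14.9, 14.5 and 17.3 in QHMM and 21.4, 24.1 and 14.7 in STH, and the breeds overlapped.

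**Figure D4:**
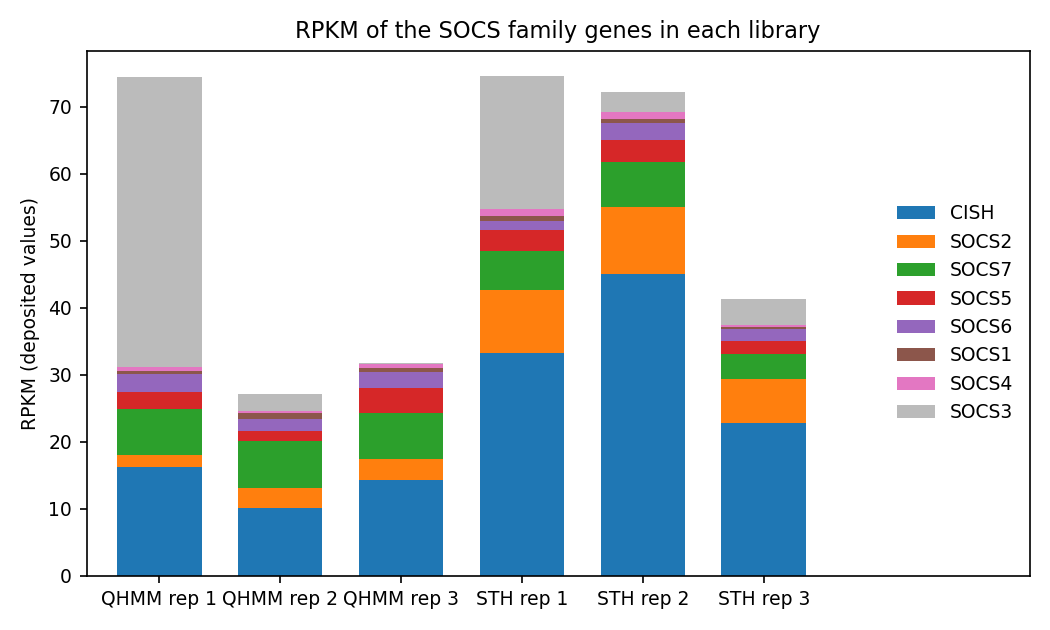
Deposited RPKM values (y axis) of the 8 SOCS family genes stacked for each of the 6 libraries, with CISH at the foot and SOCS3 (grey) on top. CISH (blue) and SOCS2 (orange) are taller in the 3 STH libraries, while SOCS3 takes 43.3 RPKM in QHMM replicate 1 and 0.196 in QHMM replicate 3.

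The other genes of the route were taken from 8 lists of 102 symbols in all, of which 90 were in the table and 74 were tested. Of the 74, edgeR called 1 as higher and 1 as lower in STH, which is 2.70% against 3.45% of all tested genes, and their median log2 fold change was -0.08. How this share stood against all genes depended on the setting. DESeq2 called 12.2% of the 74 against 7.8% of all genes, and edgeR with no filter on low counts called 10.3% of 87 against 4.56%. At an unadjusted p below 0.05 in edgeR stood 22 of the 74, or 29.7%, against 19.2% of all genes. The gene called as higher was STAT5A, whose protein acts between GHR and the targets CISH and SOCS2. Whether the STAT5A level bears on those of CISH and SOCS2 was not tested. STAT5A had 621, 495 and 435 normalized counts in QHMM and 1134, 5852 and 2519.8 in STH. The STH animals were all above the QHMM animals and differed among themselves, with STH replicate 2 the highest and replicate 1 the lowest. The log2 fold change was 2.61 (SE 0.49, FDR = 0.0216, edgeR), and 1.81 to 3.0 with 1 library left out. Without any 1 of the 3 QHMM libraries the FDR rose to between 0.0661 and 0.0831 and the call was lost.

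STAT5B, the paralog that also carries growth hormone signals, had 1746, 3003 and 2539 normalized counts in QHMM and 4159, 10164 and 5564 in STH. The breeds did not overlap, but the estimate of 1.45 on the log2 scale (SE 0.35, FDR = 0.0517, edgeR) missed the threshold, and 7 of 9 alternative settings called it. With 1 library left out it was called in 1 of 6 fits, with an FDR of up to 0.167, and its log2 fold change fell to 0.98 without STH replicate 2. The paralogs share long near-identical stretches, and reads with more than 1 position were dropped by the authors, so how their counts divide is uncertain. STH replicate 2 was the highest library for STAT5A, STAT5B, CISH and SOCS2 alike. Of the 10 tested JAK and STAT genes, the other 8 were not called and their log2 fold changes lay between -0.94 and 0.18.

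JAK2, the kinase bound to GHR, had 15.3 to 45.1 normalized counts in QHMM against 22.6 to 37.7 for STH, at a log2 fold change of -0.13 (SE 0.44, FDR = 0.908, edgeR). IGF1, the growth factor that growth hormone induces, had 15.3 to 39.6 in QHMM and 16.9 to 29.1 in STH, with -0.53 (SE 0.45, FDR = 0.573). The breeds overlapped for both genes. None of the 11 tested STAT target genes of the list was called by edgeR, 3 had an unadjusted p below 0.05 (27.3%, against 19.2% of all genes), and DESeq2 called 2 of them (18.2%, against 7.8%). The targets CISH and SOCS2 were counted apart from that list.

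IRS1, an adaptor of the insulin and IGF1 receptors that SOCS proteins can send to degradation, had 798, 989 and 908 normalized counts in QHMM and 603, 262 and 392 in STH. All STH animals lay below all QHMM animals, but IRS1 was not called, at -1.10 on the log2 scale (SE 0.29, FDR = 0.0667, edgeR). It was called by DESeq2 and by edgeR with no filter on low counts. Of the 9 tested adaptors and insulin-type receptors edgeR called 0, with 3 at an unadjusted p below 0.05 (33.3%, against 19.2% of all genes), and DESeq2 called 2 (22.2%, against 7.8%).

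**Figure D5:**
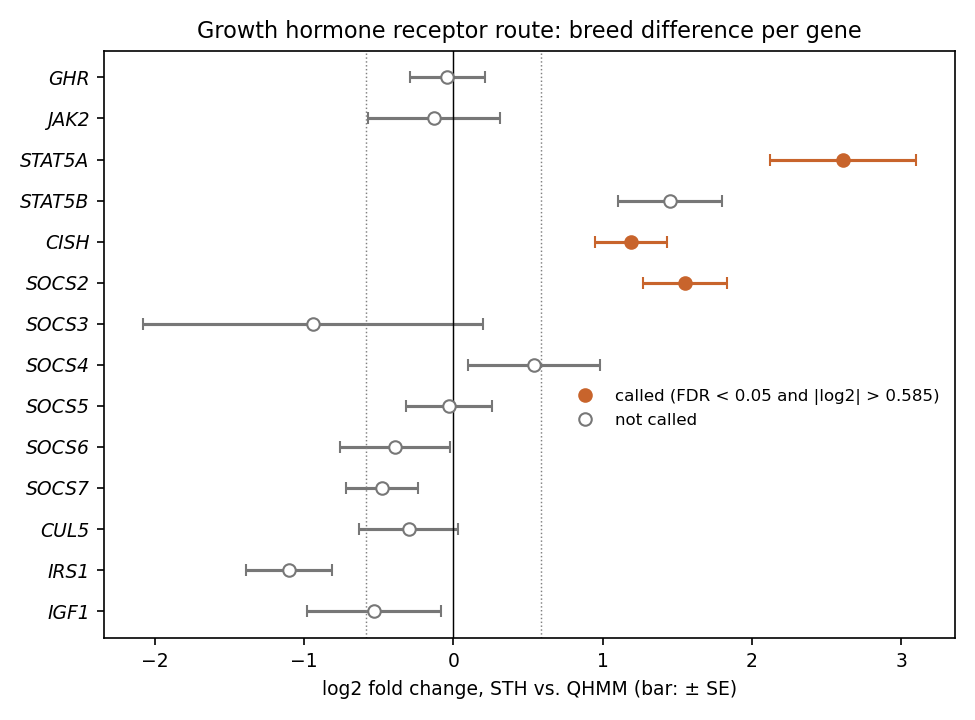
Log2 fold change of STH vs. QHMM (x axis, edgeR, bars ± SE) for the 8 tested genes and for JAK2, STAT5A, STAT5B, CUL5, IRS1 and IGF1, with dotted lines at the 1.5-fold threshold either way. The 3 filled points, STAT5A, CISH and SOCS2, are the called genes, and GHR and JAK2 lie close to 0.

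The SOCS box binds elongins B and C and the scaffold CUL5 to form a ubiquitin ligase. CUL5 had 116 to 261 normalized counts in QHMM against 105 to 172 for STH, at a log2 fold change of -0.30 (SE 0.33, FDR = 0.666, edgeR). All 8 tested ligase partners had a negative log2 fold change, between -0.33 and -0.01, as had 6026 of all 12506 tested genes. Of the 8, 0 were called or had an unadjusted p below 0.05, with 0 called by DESeq2. Of the 5 tested genes for other SOCS box proteins, edgeR and DESeq2 called 0 and none had an unadjusted p below 0.05. Among the 13 other inhibitors of cytokine signalling, such as phosphatases and PIAS proteins, edgeR called 0 with 5 at an unadjusted p below 0.05 (38.5%, against 19.2% of all genes), and DESeq2 called 1 (7.69%, against 7.8%). Of the 16 tested cytokine receptors edgeR called 0, with 5 at an unadjusted p below 0.05 (31.2%, against 19.2% of all genes), and DESeq2 called 1 (6.25%, against 7.8%).

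Only 2 of the 9 ligand genes in the table were tested, LIF and LEP. The growth hormone gene, listed as GH, had 0 reads in 5 libraries and 1 read in STH replicate 2. LEP, which encodes the adipocyte hormone leptin, was the gene called as lower. With 84, 11 and 24 reads in QHMM, LEP passed the low-count filter through that breed alone, the one where it is higher. With at least 10 counts required in every library, 0 ligands were tested. LEP was called in 5 of the 6 alternatives that tested it, and limma-trend on log2(RPKM + 1) with no filter gave -0.83 (FDR = 0.238). LEP had 75.6, 13.0 and 24.6 normalized counts in QHMM against 4.16, 0 and 1.13 for STH, at a log2 fold change of -4.21 (SE 0.90, FDR = 0.0341, edgeR). Without QHMM replicate 1, QHMM replicate 3, STH replicate 2 or STH replicate 3 LEP was not called, with an FDR of 0.0631 to 0.107. The log2 fold change ran from -3.23 without QHMM replicate 1 to -5.82 without STH replicate 1, on an STH group of 5, 0 and 1 reads.

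By edgeR, 4 of 6 adipocyte markers and 3 of 6 slow-fibre markers were called as lower in STH, and no fibroblast, endothelial or leukocyte marker was called. Of all tested genes, edgeR called 1.83% as lower and DESeq2 called 7.8% in either direction, and 19.2% had an unadjusted p below 0.05 in edgeR. The 6 adipocyte markers in the table summed to 116 to 395 CPM in QHMM and 53.4 to 80.5 in STH. Of these, edgeR and DESeq2 each called 4 as lower (66.7%), and 4 had an unadjusted p below 0.05 (66.7%). LEP, already counted among the ligands, is 1 of the 4 in each case. The 6 slow-fibre markers summed to 30887 to 33736 CPM in QHMM and 11608 to 13958 in STH. By edgeR, 3 of the 6 were called as lower and all 6 had an unadjusted p below 0.05. DESeq2 called 5 of the 6 as lower (83.3%). For all 6, every STH animal lay below every QHMM animal. The 4 fibroblast markers summed to 850 to 1379 CPM in QHMM and 368 to 757 in STH. Of these, 0 were called by edgeR, 1 had an unadjusted p below 0.05 (25.0%) and 1 was called by DESeq2 (25.0%). The 5 endothelial markers summed to 627 to 676 CPM in QHMM and 680 to 788 in STH, with 0 called by edgeR, 1 at an unadjusted p below 0.05 and 0 by DESeq2. Leukocyte markers overlapped, at 119 to 166 CPM in QHMM and 102 to 150 in STH, and of the 9 markers 0 were called by edgeR or DESeq2 or had an unadjusted p below 0.05. Red blood cell markers stayed at or below 1.53 CPM in every library. The part of these cell types in the SOCS2, CISH and STAT5A results was not tested.

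The tested genes whose profiles over the 6 libraries lay closest to SOCS2 were C17H22orf25, NMT2 and CGREF1. Closeness was the Euclidean distance between log2 CPM values centred on each gene's mean, compared over 11291 genes, where the median distance from SOCS2 was 2.15. The distances were 0.28 for C17H22orf25, 0.39 for NMT2 and 0.50 for CGREF1. C17H22orf25 had 74.7, 151 and 117 normalized counts in QHMM and 357, 345 and 282 in STH. NMT2, an enzyme that attaches myristate to proteins, had 25.2 to 40.1 in QHMM and 79.1 to 107 in STH. For GHR, whose median distance was 1.07, the closest genes were DCAF10 at 0.14, SPCS3 at 0.18 and HMBOX1 at 0.18. With 11291 genes and only 6 libraries, closeness of this kind is a description.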

How the data were processed

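Per the methods, Ion Proton reads were filtered and placed on the Oar 3.1 assembly, and reads with a single position were used. The authors deposited raw counts per gene, and RPKM values scaled to each library's total. The aligner, counting program and annotation release are not given in the sources used here, and the upper-quartile correction of the methods is not carried by the RPKM values. Groups were taken from the sample titles.

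Counts were tested in R 4.3.3 with edgeR 4.0.16 (TMM, filterByExpr, glmQLFit and glmQLFTest, breed as the only term). EBSeq, the program of the study, was not installed, and its thresholds were kept. The SE was obtained from the log2 fold change and the F statistic. The edgeR p-values set the difference between breeds against the spread between 3 animals per breed, estimated with information shared across genes. Ratios used counts plus 0.5 and a two-sided exact permutation test (SciPy 1.17.1).

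Alternatives were DESeq2 1.42.0, upper-quartile factors, no filter, at least 10 counts in every library, a replicate block, robust dispersions, limma-trend (limma 3.58.1) on RPKM with pseudocounts of 1 and 0.1 and without a filter, and each library left out. In the deposited RPKM values, 25 gene names changed into dates were left out. The edgeR, DESeq2 and limma fits were tested on simulated counts with known changes.

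The genes and lists were chosen with earlier results of these data known. Named genes are the 9 genes, called genes of the lists, JAK2, STAT5A, STAT5B, IGF1, IRS1 and CUL5, and the 3 genes closest to SOCS2 and to GHR with a mean count of at least 20. Other names are said to be chosen after their values were seen. Overlapping genes came from RefSeq.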

Additional observations from a re-analysis of the deposited data

How the results depend on the processing

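SOCS2 and CISH were both called under 8 of 9 alternatives, at log2 fold changes of 1.39 to 1.67 and 1.16 to 1.28. The exception was limma-trend on RPKM with no filter, which called 0 of the SOCS and GHR genes, 0 genes of the lists and 78 of all genes. Its FDR was 0.0801 for SOCS2 and 0.121 for CISH. With 1 library left out, 0 to 2 of the SOCS and GHR genes, 0 to 6 genes of the lists and 131 to 535 of all genes were called. The number called was 0 of the SOCS and GHR genes when replicate 1 or 3 of QHMM or replicate 2 of STH was left out, and 1 without QHMM replicate 2. DESeq2 called 975 of all genes and 9 of the lists, and the fit with no filter on low counts 806 and 9. With limma-trend on log2(RPKM + 1), 61.3% of 346 calls were higher in STH, against 47.0% of 432 with edgeR, and the median of all genes moved to 0.12, or 0.14 with a pseudocount of 0.1.

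The difference in log2 ratio with 1 library left out was 0.03 to 0.70 for SOCS2 to CISH, 1.44 to 1.90 for SOCS2 to GHR and 0.97 to 1.41 for CISH to GHR. Signs turned only in genes that were not called. SOCS3 came to 0.21 with the replicate block, 0.38 with limma-trend on log2(RPKM + 1) with or without a filter, and 0.97 with a pseudocount of 0.1. SOCS5 came to 0.01 with the block, 0.09 with log2(RPKM + 1) and 0.13 with a pseudocount of 0.1. GHR came to 0.09 under the 3 RPKM settings, which is -0.03, -0.05 and 0.05 relative to the median of all genes. JAK2 came to 0.01 with no filter on RPKM. With 1 library left out the ranges were -2.09 to 2.36 for SOCS3, -0.23 to 0.27 for SOCS5, -0.21 to 0.22 for GHR, -0.46 to 0.11 for JAK2 and -0.53 to 0.07 for CUL5. The causes were not tested.

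The replicate block called 457 of all genes, the same 2 SOCS and GHR genes, and 6 of the lists against 2, or 8.11% of their tested genes against 3.65% of all genes. Whether the replicate numbers mark a pairing or a batch is not given in the sources used here. The deviations of same-numbered libraries from their breed means had correlations of 0.23, -0.04 and -0.13 across genes. Only replicate 1 was closest to its own number. Deviations within a breed cancel out by construction, so these correlations are not independent and cannot decide whether the numbers pair the animals.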

Other observations

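SOCS3 had companions among genes outside the lists, chosen here after its values were seen. By the same distance over 11291 genes, the closest were PTGS2, the inducible prostaglandin synthase, DUSP5, a phosphatase of the kinase ERK, and ADAMTS4, a matrix protease. For PTGS2, QHMM replicates 1, 2 and 3 gave 273, 40.1 and 4.10 normalized counts and the STH replicates 161, 47.4 and 78.0. DUSP5 had 128, 26.0 and 1.02 in QHMM and 77.4, 26.9 and 31.6 in STH. All 3 had their highest value in QHMM replicate 1 and their lowest in QHMM replicate 3, and edgeR called none of them, with an FDR of 0.408 to 0.951. The distances were 1.26 to 1.63, where the median distance from SOCS3 was 5.33.

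MYC, another STAT target of the lists, was singled out after its values were seen. It had 508, 165 and 42.0 normalized counts in QHMM and 1215, 1515 and 1109.6 in STH. MYC was not called, at 2.42 on the log2 scale (SE 0.64, FDR = 0.0667, edgeR), and was called under 4 of 9 alternatives, which were no filter on low counts, the replicate block and limma-trend on RPKM with a filter at either pseudocount. Its order of the QHMM animals was that of SOCS3. All STH animals lay above all QHMM animals for MYC. This held for 2 of the 11 tested STAT targets and for 13.0% of all tested genes.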
